A study of Canis lupus familiaris with 31 samples.

Results

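Stonin 2 and the AP2 clathrin adaptor are described here in the blood of dogs with and without a raised level of fasting serum triglycerides (HTG). The members were chosen by name, as the table rows whose gene symbol was STON2, STON1, AP2A1, AP2A2, AP2B1, AP2M1, AP2S1, PICALM, EPN1 or EPS15. Of these 10 genes, 9 had a row among the 32704 in the table, and STON1, the paralog of STON2, had none and was not analysed here. Each of the 9 passed the filter on low counts and was tested, within a fit over 13918 genes.

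Clathrin-mediated endocytosis brings receptors and their ligands into the cell from its surface. The AP2 complex is the main adaptor at the plasma membrane: it binds phosphoinositides, gathers cargo with the right sorting motifs and recruits clathrin, and a set of partner proteins start the pit, bend the membrane and add cargo of their own. In blood, the route serves among others the uptake of transferrin by red cell precursors and the retrieval of membrane and surface receptors in platelets. Stonins are adaptors related to the mu subunit of AP2, best known for retrieving synaptotagmin at nerve endings.

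RNA from whole blood of 31 purebred Miniature Schnauzers was sequenced, with 1 library from each client-owned, fasted dog. The 13 cases (5 females and 8 males) had HTG, and the 18 controls (8 females and 10 males) had triglycerides in the normal range. According to the study's methods all dogs were past a minimum age set for recruitment, all males were castrated and nearly all females spayed, none was suspected of an endocrine disease or took drugs known to alter lipids, and they ate many different diets, so HTG was spontaneous and the groups differed by status and not by an experimental treatment. Because whole blood was lysed unsorted, fewer cells of a type and less RNA per cell cannot be told apart in any value below.

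The libraries held 14524659 to 41533599 counts, and the totals did not differ between the groups (P = 0.991, two-sided permutation test). Levels are given as CPM, counts scaled to the size of the library, with library sizes corrected by the TMM method, which corrects for a few abundant transcripts taking up a library, and fold changes as log2 values of cases over controls. Counting alone is precise at these levels: the shallowest value of any member was 121 counts. The library of control_03 stood apart, with a TMM factor of 0.527 against 0.752 to 1.24 in the other dogs and with the highest score for red cell (erythroid) markers, and group comparisons that it changed are given with and without it. Markers of platelets, neutrophils, monocytes, T cells, B cells and red cell precursors were all found. Of the endothelial markers, TEK had 40 to 223 counts in every dog, CDH5, ROBO4 and EMCN reached at most 38, 2 and 1 counts, and CLDN5 had no row.

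STON2 (ENSCAFG00000017308) was higher in the cases. Its level ranged from 75.3 CPM in case_12 to 180.5 CPM in case_09 among the cases, with a median of 100.8, and from 29.7 CPM in control_09 to 110 CPM in control_05 among the controls, with a median of 70.6. Every case lay above the median of the controls, 5 of 13 cases lay above the highest control and 12 of 18 controls lay below the lowest case, so the groups overlapped between 75.3 and 110 CPM. All 13 cases lay above the control median for 98 of the 13918 genes tested (0.704%), among them STON2 and AP2M1. The means were 112 ± 34.4 CPM in cases (SD, n = 13) and 68.8 ± 19.7 CPM in controls (SD, n = 18), a ratio of 1.62. The log2 fold change was 0.70 (SE 0.15, 95% confidence interval 0.39 to 1.01), with an unadjusted P of 5.66e-05 and an adjusted P of 0.0741 (edgeR's quasi-likelihood test, Benjamini-Hochberg adjustment over 13918 genes). It therefore missed the threshold of 0.05 in this test, which 5 of 13918 genes (0.0359%) passed. The study used DESeq2 with batch as a covariate. Here DESeq2 was fitted without a batch term, because the labels do not give the batch. The fold change in DESeq2 was 0.70 with an adjusted P of 0.00892, and 89 of 25584 genes (0.348%) passed. The 25584 include genes with few counts that may have no adjusted P, and such genes count as not passing. Without control_03 edgeR gave 0.73 with an adjusted P of 0.0230, and 154 of 13904 genes (1.11%) then passed. The study lists STON2 among its top changed genes in these same libraries, so none of these P values is independent of that result.

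**Figure D1:**
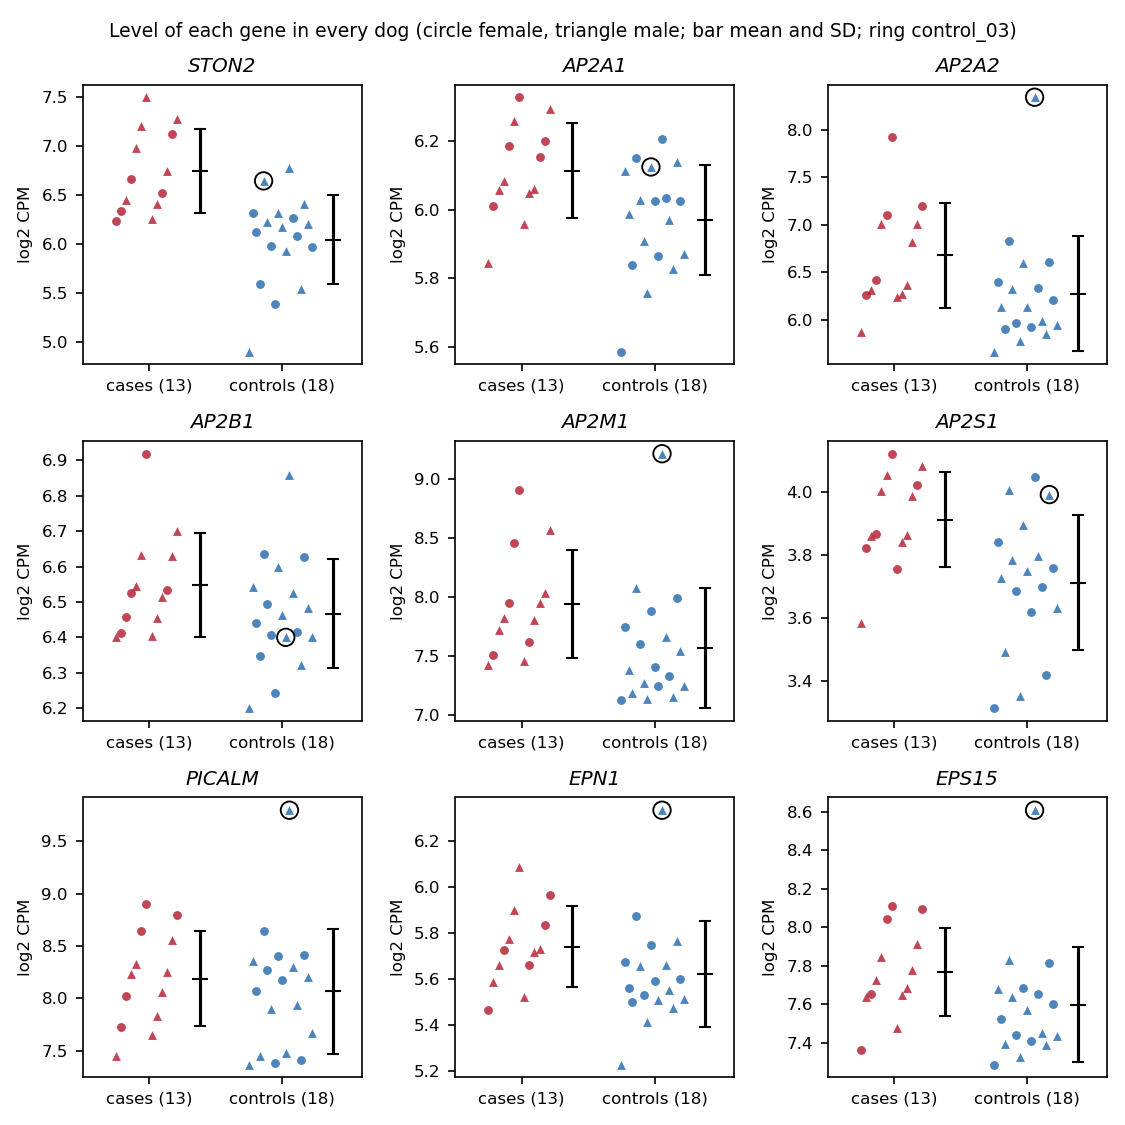
Level (log2 CPM, vertical axis, different in each panel) of the 9 genes in each dog, with 13 cases in red and 18 controls in blue, circles for females and triangles for males, and a bar for the mean and SD of each group. The ring marks control_03, which lay above every other dog for AP2A2, AP2M1, PICALM, EPN1 and EPS15, while the STON2 values of all 13 cases lay above the control median.

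The large subunits of AP2 come in a pair of alpha isoforms and a beta chain. AP2A1 (ENSCAFG00000003541) and AP2A2 (ENSCAFG00000009691) encode the alternative alpha subunits, which bind the membrane and partner proteins. AP2A1 ranged from 57.4 to 80.3 CPM in cases, with a median of 67.8, and from 47.9 to 73.8 CPM in controls, with a median of 64.3. The ranges overlapped over most of their length, although 11 of 13 cases lay above the control median. Its log2 fold change was 0.14 (SE 0.06, unadjusted P = 0.0190, adjusted P = 0.377, edgeR). AP2A2 ranged from 58.6 CPM in case_04 to 243 CPM in case_01 among the cases, with a median of 85.5, and from 50.6 CPM in control_09 to 324 CPM in control_03 among the controls, with a median of 70.1. The single highest dog was thus a control, and the next control reached 114 CPM. For AP2A2 the log2 fold change was 0.35 (SE 0.23, adjusted P = 0.647, edgeR), and without control_03 it was 0.59 (SE 0.16, unadjusted P = 0.000698, adjusted P = 0.0551). Without case_01, the highest case, it was 0.20 (adjusted P = 0.887).

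AP2B1 (ENSCAFG00000018246), the beta subunit that binds clathrin itself, was steady across the dogs. It ranged from 84.3 to 121 CPM in cases, with a median of 92.0 and case_01 at the top, and from 73.4 to 116 CPM in controls, with a median of 87.4. The groups overlapped over most of their ranges, with 4 of 18 controls below the lowest case and 1 of 13 cases above the highest control. The log2 fold change was 0.08 (SE 0.06, adjusted P = 0.693, edgeR), and 0.042 (adjusted P = 0.919) without case_01.

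The medium and small subunits read the sorting motifs of the cargo. AP2M1 (ENSCAFG00000012257), the mu subunit, recognises tyrosine-based motifs. It ranged from 172 CPM in case_04 to 480 CPM in case_01, with a median of 226, and from 140 CPM in control_11 to 592 CPM in control_03, with a median of 168. All 13 cases exceeded the control median and 10 of 18 controls lay below the lowest case, yet control_03 was again the highest of all dogs. The log2 fold change of AP2M1 was 0.34 (SE 0.18, adjusted P = 0.568, edgeR) with control_03 and 0.51 (SE 0.14, unadjusted P = 0.000842, adjusted P = 0.0567) without it, and 0.23 (adjusted P = 0.813) without case_01. AP2S1 (ENSCAFG00000004193), the small sigma subunit that helps to read dileucine motifs, ranged from 11.9 to 17.3 CPM in cases, with a median of 14.5, and from 9.85 to 16.5 CPM in controls, with a median of 13.3. Of the cases 12 lay above the control median and 3 above the highest control. Its fold change was 0.20 on the log2 scale (SE 0.07, unadjusted P = 0.0115, adjusted P = 0.337, edgeR).

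The remaining members are partners of AP2 at the pit. PICALM (ENSCAFG00000004486) encodes an adaptor that senses and drives membrane curvature and is known in red cell precursors for its part in transferrin receptor uptake. It ranged from 175 to 479 CPM in cases, with a median of 301, and from 165 to 889 CPM in controls, with a median of 279 and control_03 at the top. Its groups overlapped throughout, 7 of 13 cases lay above the control median, and the log2 fold change was 0.05 (SE 0.20, 95% confidence interval -0.36 to 0.46, adjusted P = 0.957, edgeR). EPN1 (ENSCAFG00000002531), an epsin that inserts into the membrane and binds ubiquitinated cargo, ranged from 44.1 to 67.9 CPM in cases and from 37.4 to 80.4 CPM in controls, with medians of 52.9 and 47.7. EPS15 (ENSCAFG00000003871), a scaffold of the early pit, ranged from 165 to 277 CPM in cases and from 156 to 390 CPM in controls, with medians of 211 and 187. Both overlapped widely, with 11 of 13 cases above the control median for each gene and control_03 as the highest dog. The log2 fold changes were 0.11 (SE 0.08, adjusted P = 0.669) for EPN1 and 0.15 (SE 0.10, adjusted P = 0.653) for EPS15 in edgeR. Without control_03 they were 0.16 (SE 0.06, adjusted P = 0.159) for EPN1 and 0.24 (SE 0.07, adjusted P = 0.0881) for EPS15, and that of PICALM was 0.23 (SE 0.15, adjusted P = 0.486).

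Across the 9 genes, none passed the adjusted threshold in edgeR, against the 0.0359% of all genes that did, and DESeq2 called STON2 alone. At an unadjusted P under 0.05, 3 of 9 were higher in cases (STON2, AP2S1 and AP2A1) and none was lower, where 5.04% of all genes tested were higher and 4.76% lower. Without control_03, AP2A2, AP2M1, EPN1 and EPS15 were also among them, so that 7 of 9 were higher and none lower, beside 9.33% and 7.13% of all genes. Leaving out any other dog gave 3 or 4 of 9. With all dogs the 9 fold changes were above 0 (8 without case_01 or case_08), against 45.5% of all genes, with a median of 0.15 against -0.02 over all genes. The 9 levels were correlated across dogs, as shown further on, so these are not 9 separate observations. STON2 was also already among the study's changed genes when the members were chosen.

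The spread between dogs differed widely among the genes. It is given with all dogs, and for AP2A2, AP2M1, PICALM, EPN1 and EPS15 it includes control_03, the highest dog. AP2B1 and AP2A1 were among the least variable genes in the table: the SD of their log2 CPM over 31 dogs was 0.15 and 0.17, and only 4.71% and 6.80% of genes tested varied less. EPN1 and AP2S1 each had an SD of 0.21, above 17.5% and 17.7% of genes. EPS15 was intermediate, with an SD of 0.28. AP2M1, PICALM, STON2 and AP2A2 varied most, with SDs of 0.51, 0.54, 0.56 and 0.61, which exceeded the SDs of 67.0% to 74.5% of genes. Subunits of a complex assembled from equal numbers of chains thus differed widely in how much their transcripts varied between dogs, and the alpha isoforms lay at opposite ends.

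The levels were then set against scores for the cell types of blood, each score being the mean log2 CPM of a list of marker genes, centred over the dogs. Because markers and members were read from the same libraries, such a relation describes which transcripts varied together and does not show in which cells a gene was expressed. STON2 followed the platelet score, made of 11 of 14 listed markers (no row was found for PF4 and GP5, and CMTM5 had 0 counts in every dog). Pearson's r was 0.87 and Spearman's rho 0.78 over 31 dogs (permutation P = 1e-05 for both, the smallest it can give, adjusted P = 0.00012 over the 72 relations of 9 genes with 8 scores). The relation held without the 2 dogs farthest from the median score (r = 0.81), within cases (0.80) and within controls (0.86). Of the 13918 genes tested, 68 (0.489%) had an r with this score at least as high. With the erythroid score, STON2 had an r of 0.34 (adjusted P = 0.140) and a rho of 0.44 (adjusted P = 0.0426, permutation test), and r was 0.11 within cases and 0.22 within controls.

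AP2M1, AP2A2, EPS15 and PICALM had their highest r with the erythroid score, made of ALAS2, SLC4A1, AHSP, EPB42, CA1, KLF1 and HBM. Pearson's r was 0.91 for AP2M1, 0.90 for AP2A2, 0.90 for EPS15 and 0.90 for PICALM, with rho of 0.86, 0.88, 0.87 and 0.90 (permutation P = 1e-05 for each, adjusted P = 0.00012). Without the 2 farthest dogs, control_03 among them, r was still 0.85 for AP2M1, 0.85 for AP2A2, 0.86 for EPS15 and 0.86 for PICALM. They also went with other scores at lower r. With the neutrophil score r was 0.58 for AP2M1, 0.54 for EPS15 and 0.47 for PICALM (adjusted P = 0.0034, 0.0084 and 0.024), and with the platelet score 0.48 for AP2M1, 0.49 for EPS15 and 0.44 for AP2A2 (adjusted P = 0.023, 0.021 and 0.041, permutation test). Few genes reached the values seen with the erythroid score: 169 of 13918 (1.21%) for the r of AP2M1 and 197 (1.42%) for that of PICALM. AP2A1, the other alpha isoform, had an r of 0.56 with the erythroid score, AP2B1 0.51, EPN1 0.63 and AP2S1 0.35 (adjusted P = 0.0044, 0.016, 0.0011 and 0.122, permutation test). AP2A1 had nearly as high an r with the platelet score, 0.49, and with the neutrophil score, 0.47 (adjusted P = 0.020 and 0.023). For EPN1 r was 0.43 without the 2 farthest dogs, and rho was 0.45.

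**Figure D2:**
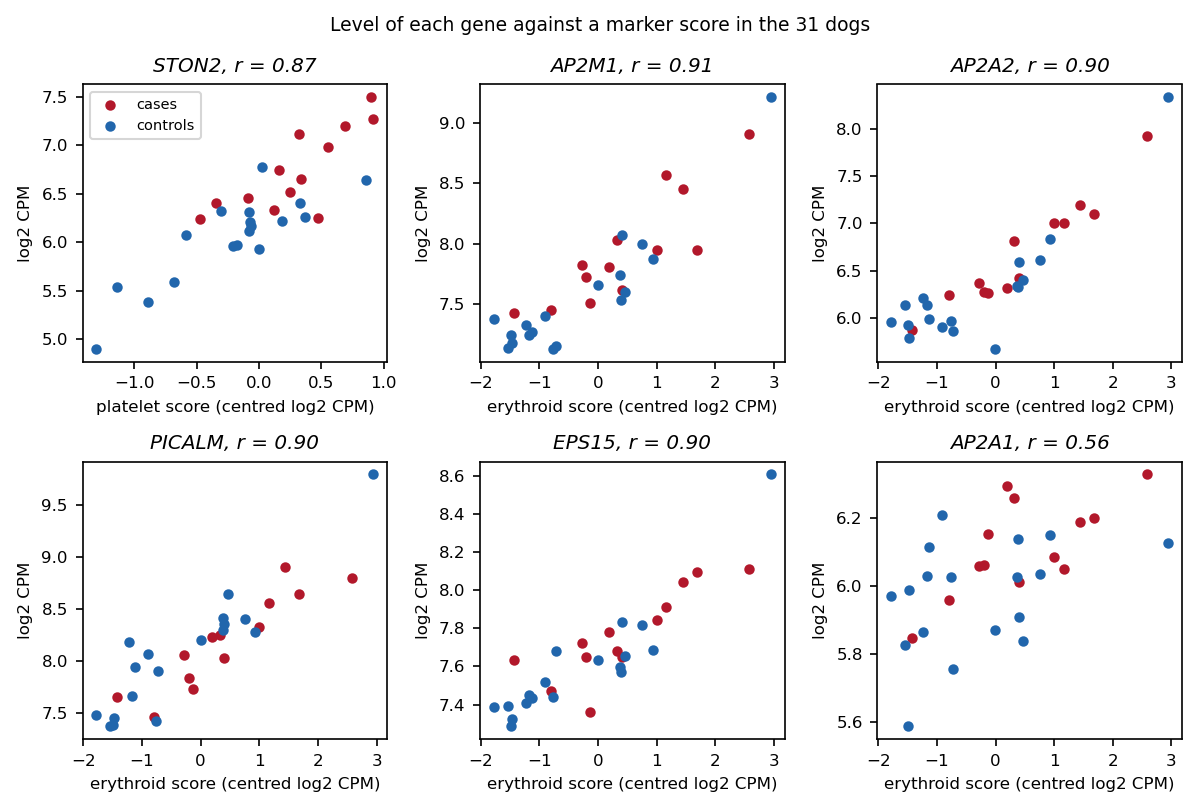
Level (log2 CPM, vertical axis) of 6 of the genes in each of the 31 dogs against a marker score (horizontal axis, mean centred log2 CPM of the platelet or erythroid markers), with cases in red and controls in blue. STON2 rises with the platelet score (r = 0.87) and AP2M1, AP2A2, PICALM and EPS15 with the erythroid score (r of 0.90 to 0.91), whereas AP2A1 follows the latter loosely (r = 0.56).

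AP2B1 and AP2S1 went most closely with the neutrophil score, with an r of 0.74 (rho 0.64, adjusted P = 0.00012) and 0.65 (rho 0.71, adjusted P = 0.0009, permutation test). For AP2B1 this was the more even of the relations, at 0.69 within cases and 0.75 within controls, while for AP2S1 it was 0.24 within cases and 0.66 within controls. Toward the T cell score the members pointed the other way, with r from -0.65 for PICALM and -0.60 for AP2M1 to -0.26 for STON2. PICALM, AP2M1, AP2B1, EPS15 and AP2A2 passed (adjusted P = 0.00041, 0.0019, 0.0034, 0.0044 and 0.023, permutation test). AP2A1, EPN1, AP2S1 and STON2 did not (adjusted P = 0.081, 0.103, 0.260 and 0.279), and r for STON2 was -0.0018 within controls. No member had an adjusted P at or under 0.05 with the monocyte, B cell or cytotoxic lymphocyte score (Pearson's r, permutation test). AP2S1 had an r of -0.46 with the eosinophil and basophil score (adjusted P = 0.028), which was 0.10 within cases and -0.77 within controls.

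The contrast between the alpha isoforms can also be read as a difference within each dog, in which the scaling of the library cancels, although the score it is set against is itself scaled. AP2A2 varied far more than AP2A1 (SD of 0.61 against 0.17), so the difference largely restates the values of AP2A2. Its relation to the score is therefore not separate evidence. The log2 level of AP2A1 minus that of AP2A2 fell as the erythroid score increased, with an r of -0.85 and a rho of -0.76 (permutation P = 1e-05 for both, adjusted P = 4e-05 over 4 relations), and an r of -0.75 without the 2 farthest dogs, -0.91 within cases and -0.80 within controls. It lay between -2.22 and 0.30 among controls and between -1.60 and -0.02 among cases. The mean of this difference was -0.56 ± 0.48 in cases (SD, n = 13) and -0.30 ± 0.57 in controls (SD, n = 18), a difference of -0.26 that did not pass the test (permutation P = 0.199, adjusted P = 0.199 over the 2 differences compared). This rested on control_03, the dog at -2.22: without it the mean in controls was -0.19 ± 0.32 (SD, n = 17), and the difference of -0.37 passed (permutation P = 0.0156, adjusted P = 0.0312). Without any other single dog it did not pass. STON2 minus AP2M1, an adaptor related to the mu subunit against the subunit itself, was -1.20 ± 0.49 in cases and -1.52 ± 0.58 in controls, which overlapped widely (difference 0.33, permutation P = 0.111, adjusted P = 0.199, and 0.26 with an adjusted P of 0.175 without control_03). It had an r of 0.43 (adjusted P = 0.022) and a rho of 0.34 (adjusted P = 0.0856) with the platelet score, and an r of -0.50 (adjusted P = 0.0097) and a rho of -0.41 (adjusted P = 0.047) with the erythroid score (permutation test over 31 dogs), but without the 2 farthest dogs r was 0.27 and -0.28. Within cases and within controls r was 0.35 and 0.34 with the platelet score, and -0.70 and -0.63 with the erythroid score. On the 2 sides of a split of the dogs by small RNA counts, described further on, r with the platelet score was -0.14 in 10 dogs and 0.56 in the other 21.

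The scores themselves differed between the groups to different degrees. The platelet score was higher in cases by 0.51 (permutation P = 0.0095, adjusted P = 0.038 over 8 scores), with summed levels of its markers of 941 to 4308 CPM in cases and 657 to 4542 CPM in controls. The neutrophil score was higher by 0.67 (adjusted P = 0.038), with summed levels of 6172 to 10953 CPM in cases and 4172 to 18401 CPM in controls. For the erythroid score the difference was 0.79 (permutation P = 0.072, adjusted P = 0.19), with 869 to 17972 CPM in cases and 698 to 32665 CPM in controls, where the top value was that of control_03. Without that dog the erythroid difference was 0.98 and passed (permutation P = 0.0122, adjusted P = 0.0325). The calls of the other 2 scores were near the threshold: leaving out each dog in turn put the adjusted P above 0.05 in 15 of 31 fits for the platelet score and in 14 of 31 for the neutrophil score, at most 0.0791, with differences of 0.44 to 0.57 and of 0.60 to 0.79. None of the single markers passed the test between groups. Of the 11 platelet markers 10 had a log2 fold change above 0, up to 0.80 for GP1BA, and GFI1B, a transcription factor shared with red cell precursors, had -0.01. Of the 9 neutrophil markers 7 were above 0, with CD177 highest at 1.66 and CXCR2 and CSF3R each at -0.02, and all 7 erythroid markers lay between 0.22 and 0.84.

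With the platelet score fitted beside the group, the log2 fold change of STON2 was 0.32 (SE 0.10, unadjusted P = 0.00309, adjusted P = 0.465, edgeR). With the erythroid score beside the group, STON2 had 0.64 (SE 0.16, adjusted P = 0.15), and with the neutrophil score it had 0.82 (SE 0.18, adjusted P = 0.135). The erythroid score gave 0.02 for AP2A2, 0.08 for AP2M1 and 0.01 for EPS15, and the neutrophil score gave 0.05, 0.06 and 0.01 for the same genes. PICALM had -0.22 with the erythroid score (SE 0.09, unadjusted P = 0.0140, adjusted P = 0.390) and -0.22 with the neutrophil score (SE 0.20), against 0.05 with no score. AP2S1 had 0.19 with the platelet score, 0.16 with the erythroid score and 0.09 with the neutrophil score, and AP2A1 had 0.09 in each of the 3 fits. No gene of the 13918 tested passed the adjusted threshold in any of the 3 fits, and at an unadjusted P under 0.05 they gave 6.85%, 9.74% and 12.3% of genes. These scores hold part of the group difference themselves, and what part cell counts had in the result was not tested.

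**Figure D3:**
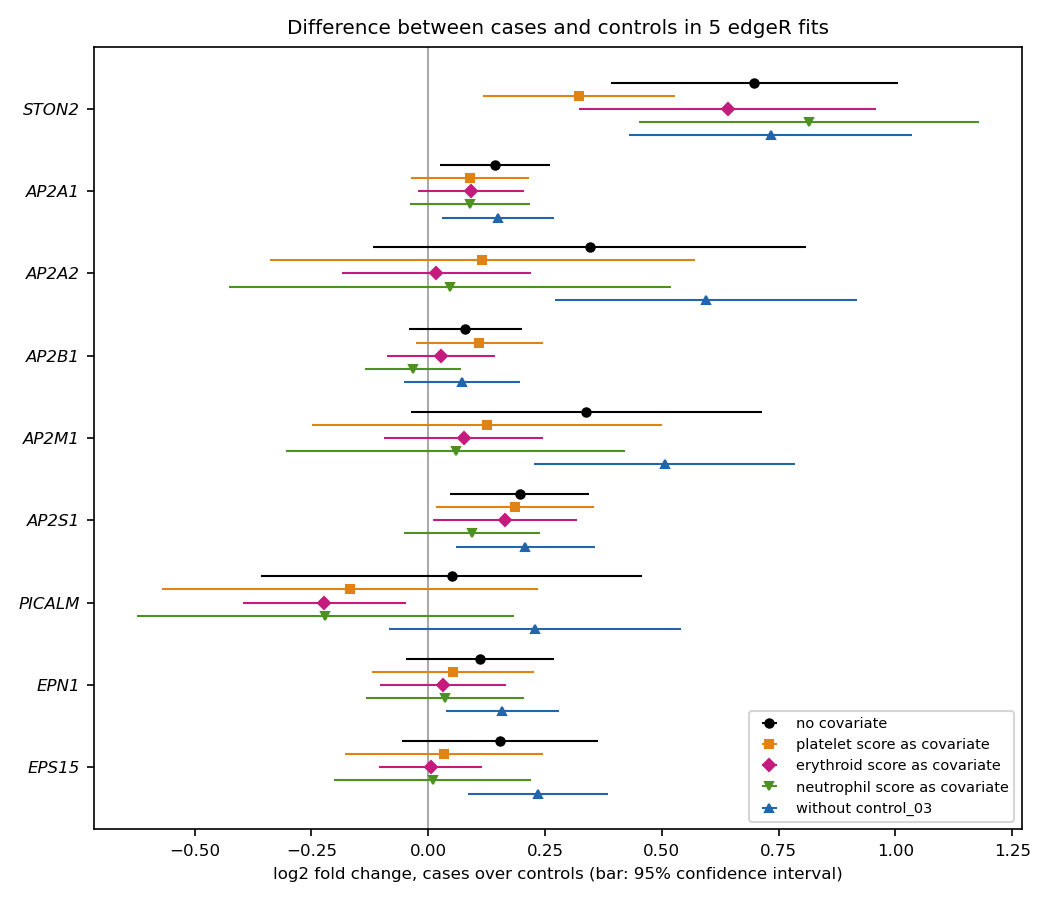
Log2 fold change of cases over controls (horizontal axis) for the 9 genes in 5 edgeR fits: without a covariate, with the platelet, erythroid or neutrophil score beside the group, and without control_03. Bars are 95% confidence intervals, and the value of STON2 goes from 0.70 without a covariate to 0.32 with the platelet score, while AP2A2 goes from 0.35 to 0.59 without control_03 and to 0.02 with the erythroid score.

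Together, the platelet and erythroid scores accounted for 84.4% of the variance of AP2M1 over the dogs, 83.0% of that of EPS15, 82.7% of AP2A2, 80.5% of PICALM and 75.0% of STON2. For EPN1 and AP2A1 it was 40.7% and 40.5%, for AP2B1 30.9% and for AP2S1 14.4%. The neutrophil score, with which AP2B1 and AP2S1 had their highest r, was not part of this regression or of the one below. The genes were also correlated with each other. Over the 36 pairs Pearson's r ran from 0.02 (STON2 and AP2B1) to 0.92 (AP2A2 and AP2M1), with a median of 0.45, and 14 pairs exceeded 0.5. The block formed by AP2A2, AP2M1, PICALM and EPS15 held the highest values, from 0.83 for AP2A2 with PICALM to 0.92. After regression on both scores the median over the pairs was 0.07 and 4 pairs exceeded 0.5: AP2A2 with EPN1 (0.64), AP2A2 with AP2M1 (0.54), AP2M1 with EPN1 (0.52) and AP2A1 with AP2S1 (0.51). For STON2 the highest r was 0.46 as measured, with AP2A1 and with AP2M1, and 0.20 after the regression.

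**Figure D4:**
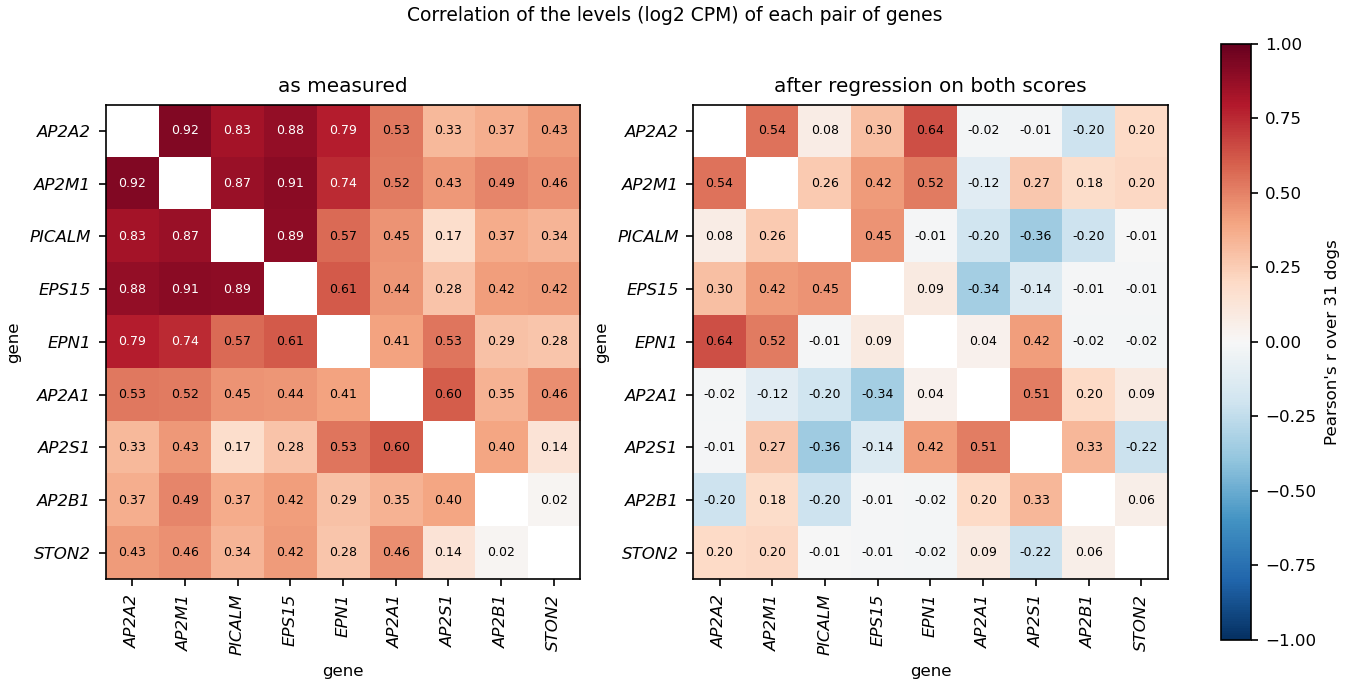
Pearson's r of log2 CPM over the 31 dogs for each of the 36 pairs of genes, as measured (left) and after regression on the platelet and erythroid scores (right), with genes on both axes and r as colour and number. The block of AP2A2, AP2M1, PICALM and EPS15 stands out on the left with r of 0.83 to 0.92 and is paler on the right, where 4 pairs exceed 0.5.

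The genes of most similar pattern, by Spearman's rho over the 31 dogs among all genes tested, are given as a description. For STON2 they were ENDOD1 (0.87), GP6 (0.87), METTL7A (0.86), TXLNB (0.86) and EGF (0.86). GP6, the platelet receptor for collagen, is also a marker in the platelet score. For AP2A2 the closest gene was PPOX (0.95), an enzyme of heme synthesis, for AP2M1 BLOC1S4 (0.95), a subunit of a complex that makes lysosome-related organelles, for PICALM PPM1B (0.94), a phosphatase, and for EPS15 LGALS9 (0.90), a galectin. AP2B1 was closest to SNX7 (0.81), EPN1 to CTDNEP1 (0.84), AP2A1 to LYPLA2 (0.77) and AP2S1 to CD177 (0.72), a neutrophil surface protein, though for AP2S1 and CD177 rho was 0.22 within the cases.

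Females and males were also compared, in a fit with case status as a covariate. No member passed the test between the sexes, where 17 of 13918 genes (0.122%) did. STON2 had the largest value in either direction, at -0.25 for females minus males (SE 0.15, unadjusted P = 0.111, edgeR), and the others lay between -0.04 and 0.12. Without control_03, a male, AP2A2 had 0.38 (SE 0.15, unadjusted P = 0.0140, adjusted P = 0.349) and PICALM 0.32 (SE 0.14, unadjusted P = 0.0329, adjusted P = 0.423), beside 10.5% of all genes at an unadjusted P under 0.05.

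Within the sexes, the cases had a STON2 log2 fold change of 0.63 (SE 0.17) in females and 0.72 (SE 0.21) in males. The difference between the sexes was -0.10 (SE 0.31, unadjusted P = 0.744, edgeR), with a 95% confidence interval of -0.73 to 0.52. AP2A2 had 0.82 (SE 0.25) in females and 0.01 (SE 0.32) in males, but the difference of 0.80 (SE 0.45) did not pass the test (unadjusted P = 0.0903). Without control_03 the value in males was 0.46 (SE 0.16) and the difference between the sexes 0.35 (SE 0.29, unadjusted P = 0.248). AP2M1 went the same way, with 0.63 in females, 0.14 in males and 0.45 in males without control_03. No member, and none of the 13918 genes, passed the test of the difference between the sexes in edgeR or DESeq2, and 3.93% of genes had an unadjusted P under 0.05 in edgeR.

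A technical split was looked for because, by the study's methods, 10 of the libraries (5 of each group) came from an earlier pilot, and the labels do not say which. The dogs were ranked by the mean log2 CPM of 364 rows for small RNAs, and the size of the high side was set to 10, the number of pilot libraries. These 10 dogs (5 cases and 5 controls) lay at 1.68 to 2.38 and the other 21 at 0.69 to 1.41. Whether the 10 are the pilot libraries is not known. STON2 was higher in cases on both sides, by 0.65 (SE 0.21) in the 10 dogs and by 0.65 (SE 0.18) in the 21, and by 0.65 with the split as a covariate (adjusted P = 0.0729, edgeR). AP2A2 had 0.56 (SE 0.21) in the 21 dogs and -0.09 (SE 0.47) in the 10, where control_03 is 1 of 5 controls, and 0.74 (SE 0.18) in the 9 dogs left without it. AP2M1 behaved likewise, with 0.45 in the 21 dogs, 0.07 in the 10 and 0.66 in the 9. Its relation to the erythroid score held on both sides (r = 0.90 and 0.91), as did that of AP2A2 (0.96 and 0.87) and of STON2 to the platelet score (0.79 and 0.86).

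The wider clathrin pathway was divided evenly between higher and lower genes. Of 85 other genes listed, 81 had a row and 66 were tested: 33 were higher and 33 lower in cases, with a median log2 fold change of -0.00048 against -0.02 over all genes. None passed the adjusted threshold in edgeR or DESeq2, and at an unadjusted P under 0.05 in edgeR 4 of 66 were higher and 2 lower, beside 5.04% and 4.76% of all genes tested, so the counts were near the background. Without control_03 it was 7 higher and 5 lower, beside 9.33% and 7.13%, and without any other dog 2 to 5 higher. The 4 higher genes with all dogs were listed under membrane curvature and scission, a group of 12 that was not itself tested. DNM1, a dynamin that cuts the neck of the vesicle, was at 9.86 ± 3.10 CPM in cases and 6.55 ± 2.70 CPM in controls (SD, n = 13 and 18), a log2 fold change of 0.59 (SE 0.19, adjusted P = 0.259, edgeR), with 12 of 13 cases above the control median. SNX9, a sorting nexin that recruits dynamin, had 0.33 (SE 0.11, adjusted P = 0.284), BIN1, an amphiphysin that shapes tubules, 0.28 (SE 0.12, adjusted P = 0.444) and PACSIN1, a protein that bends membranes, 0.26 (SE 0.13, adjusted P = 0.499).

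The values of DNM1 and BIN1 were 0.21 and 0.01 with the platelet score beside the group, while those of SNX9 and PACSIN1 were 0.36 and 0.33. HSPA8, the chaperone that strips the coat from vesicles, was among the lower genes, at -0.26 (SE 0.12, adjusted P = 0.444, edgeR). It was at 463 ± 111 CPM in cases and 555 ± 113 CPM in controls (SD, n = 13 and 18), with 2 of 13 cases above the control median.

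Other adaptor complexes gave a point of comparison. Of the AP1 genes, which serve traffic from the trans-Golgi network, 7 were tested, 4 higher and 3 lower, between -0.18 and 0.15. Of the AP3 genes, which serve lysosome-related organelles such as platelet granules, 7 were tested, 1 higher and 6 lower, between -0.10 and 0.08. None of these 14 genes had an unadjusted P under 0.05. The clathrin chains themselves, 3 genes tested, lay between -0.04 and 0.16. Among the synaptotagmins, the cargo for which stonins are best known, 4 of 15 were tested and lay between -0.06 and 0.28, and the others had no row or too few counts. Among the 66 genes, 2 had an r with the erythroid score of at least 0.8 (3.03%, against 3.50% of all genes tested). Named after their values were seen, these were BMP2K, a kinase of the AP2 mu subunit (r = 0.97), and DNAJC6, the auxilin that works with HSPA8 (r = 0.95). None of the 66 reached 0.8 with the platelet score, and BIN1 came closest (r = 0.79). With the neutrophil score 1 did (1.52%, against 0.460% of all genes), DNM2, the dynamin found in most tissues (r = 0.84), also named after its value was seen.

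**Figure D5:**
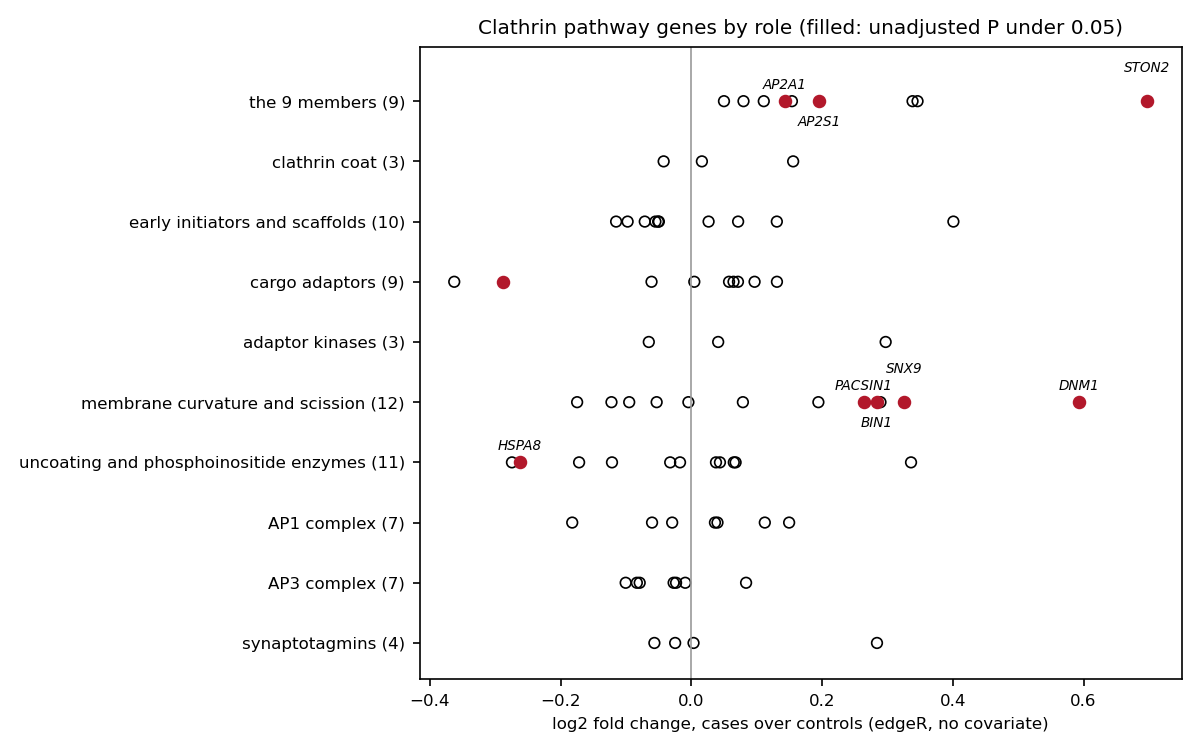
Log2 fold change of cases over controls (horizontal axis, edgeR without a covariate) for the 9 members and the 66 other clathrin pathway genes tested, by role, with the number of genes in parentheses. Filled points have an unadjusted P under 0.05, and those described in the text carry their names. All 9 members lie above 0, with STON2 farthest at 0.70, and the other roles lie on both sides of 0 with 4 filled points among the genes for membrane curvature and scission.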

How the data were processed

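The deposited table held raw counts per gene for the 31 libraries. Per the study's methods, the authors extracted RNA from stabilised blood, removed ribosomal RNA, made stranded total RNA libraries, trimmed paired reads with Trimmomatic, aligned them with HISAT2 to canFam6 and counted pairs with both mates mapped. Multiply mapped reads were left unassigned, so sequence shared by paralogs such as AP2A1 and AP2A2 adds no counts. The labels name another extraction kit than the methods and polyA RNA as the molecule, but the same total RNA library kit, and which is right bears on what the small RNA rows measure. The table had 32704 rows, 7120 of them 0 in every dog, and no pair of identical columns.

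Genes were tested from these counts with edgeR 4.0.16 (quasi-likelihood, TMM, filterByExpr by group, threshold 0.05, Benjamini-Hochberg) in R 4.3.3. DESeq2 1.42.0 and limma-voom 3.58.1, other scalings and filters, covariates and left-out dogs were alternatives. Scripts were tested on simulated data. Log2 CPM had a prior count of 2. Permutation tests were two-sided with 100000 draws. Replicates are separate dogs. Every member was named, together with clathrin genes at an unadjusted P under 0.05 and the closest genes by rho (5 for STON2, 1 for each other member). The members and lists were chosen with earlier results of these data known. The numbers shared by 13 cases and controls come from the titles alone and do not pair the dogs.

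Of the other marker lists, with all dogs included, no group difference passed the permutation test (adjusted P over 8 scores from 0.19 to 0.39 for monocyte, T cell, B cell, cytotoxic lymphocyte, erythroid and eosinophil and basophil genes), and the endothelial list, with only TEK tested, was not scored. No transcript lengths were used, so levels are not compared between genes. A gene that the naming rule also covers is not reported here.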

Additional observations from a re-analysis of the deposited data

Results flagged for a closer look

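Within each group and sex of 4 to 10 dogs, the gap between an extreme dog and its neighbour was compared with Dixon's 95% critical value. Of 36 such sets, 6 passed, where chance flags about 1 in 20. Among the 10 male controls, control_03 was the highest dog for 5 genes: AP2A2 at 324 CPM (next 96.4), AP2M1 at 592 CPM (next 269.8), PICALM at 889 CPM (next 327), EPN1 at 80.4 CPM (next 54.3) and EPS15 at 390.3 CPM (next 228). The same library had the highest erythroid score, 2.95, and these 5 flags are 5 readings of 1 library. Among the 5 female cases, case_01 was the highest for AP2B1, at 121 CPM (next 92.5). STON2 had no such dog.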

How the results depend on the processing

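Of 19 alternatives that kept or restricted the dogs (the neutrophil and erythroid scores, DESeq2 with the split, and the subsets without control_03 were chosen after seeing the data), STON2 stayed above 0 in each, from 0.32 to 0.82 on the log2 scale. DESeq2 (0.70) and DESeq2 with the split (0.65, adjusted P = 0.00692) called it, which made 1 member called. Leaving out each dog in turn gave 0.62 to 0.75 for STON2 (adjusted P 0.0230 to 0.138) and 0 to 1 members called, and it passed without case_12 (0.74, adjusted P = 0.0397), control_03 (0.73, adjusted P = 0.0230) or control_05 (0.75, adjusted P = 0.0391). AP2A2 ran from 0.20 without case_01 to 0.59 without control_03, AP2M1 from 0.23 to 0.51 without the same dogs, and PICALM from -0.015 without case_08 to 0.23 without control_03. AP2A2 turned to -0.089 among the 10 dogs of 1 side of the split, and AP2B1 to -0.033 with the neutrophil score. PICALM turned to -0.17, -0.22 and -0.22 with the platelet, erythroid and neutrophil scores, to -0.20 among those 10 dogs and to -0.16 in males. The cause was not tested. The number of genes called was 5 in edgeR, 89 in DESeq2, 107 in DESeq2 with the split, 1 with at least 10 counts in every dog, 0 in limma-voom and 154 without control_03. With the replicate number as a block over 26 dogs, STON2 had 0.71 (adjusted P = 0.598). The numbers do not pair the dogs (r of deviations -0.44 to 0.26, median -0.01, 3 of 13 above 0.1, 1 case closest to its own number). Leaving out each dog (chosen after seeing the data), AP2A1 minus AP2A2 differed between the groups by -0.37 to -0.17 and passed without control_03 alone (-0.37, adjusted P = 0.0312), while STON2 minus AP2M1 differed by 0.25 to 0.41. No other count of members or clathrin genes called changed. A difference of STON2 from STON1 was not computed for want of a STON1 row.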

Other observations

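GTF2A1L, a gene that lies near STON1 in the RefSeq annotation of the dog, had a row with 48 to 510 counts in the 31 dogs. Whether reads of STON1 were counted there was not tested.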
